A study of Homo sapiens with 6 samples.

Results

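The splicing factor and hnRNP genes were examined in the human colorectal carcinoma line HCT116. Members were the genes whose symbol begins with SRSF, SF3A, SF3B, SNRP, HNRNP or PRPF, with U2AF2 added. U2AF1 was left out for its unsteady values in the control libraries (19.6 and 5.71 FPKM), so measured values entered the choice there. The rule found 72 genes among 20026, and 66 of them reached 0.5 FPKM (fragments per kilobase of transcript, scaled to the mapped fragments of the library) in at least 2 of the 6 libraries. The others did not reach this level. HNRNPCL1, HNRNPCL2, HNRNPCL3, HNRNPCL4 and SNRPN were listed at 0 in every library, and SRSF12 ranged from 0 to 0.0361 FPKM.

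RNA was sequenced from 3 stable HCT116 lines with 2 libraries each, namely a control line, a line expressing wild type TEAD4 and a line expressing the TEAD4 mutant K178R. TEAD4 binds DNA and, with its coactivators YAP and TAZ, carries out transcription downstream of the Hippo pathway. The titles of the control libraries hold the letters PQ, whose meaning is not explained. Beyond this, the labels used here name no vector, no promoter and no number of clones for a line. They do not state whether the 2 libraries of a line are separate cultures, so the spread behind each p-value may be technical. TEAD4 itself was at 16.6 and 17.5 FPKM in the control libraries, 86.4 and 84.4 FPKM in the wild type TEAD4 libraries, and 71.2 and 72.3 FPKM in the K178R libraries, values that do not separate introduced TEAD4 from the cells' own. The title of wild type replicate 2 names TEAD4, whereas its genotype label names TEAD5, and its TEAD4 level was close to that of replicate 1. Leading results are therefore also given without it. The wild type TEAD4 libraries stood apart from the other 4 in 2 measures of the whole table. They had 5319 and 5310 genes at 0 FPKM against 5592 to 5640, and median-of-ratios factors of 1.05 against 0.974 to 0.982. Total FPKM ranged from 283195 to 305329 and was highest in them, and depth relative to control replicate 1, read from the steps of low values, ranged from 0.930 to 1.05 over the libraries.

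Splicing removes introns through the spliceosome, which is built from small nuclear ribonucleoproteins and many associated proteins. The SNRP genes encode the Sm ring proteins and proteins particular to single particles, and the SF3A and SF3B genes encode the complexes that hold the branch site. U2AF2 binds the pyrimidine tract ahead of the 3′ splice site, and the PRPF genes encode factors from early assembly to the catalytic core. SR proteins, encoded by the SRSF genes, mostly bind exonic enhancers and promote the use of nearby splice sites, while hnRNP proteins coat nascent RNA and often act against them. Many SR and hnRNP genes limit their own expression through exons that send the transcript to nonsense-mediated decay. FPKM per gene does not separate such transcripts from those that encode full-length protein.

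In the wild type TEAD4 line, HNRNPH1, SRSF1 and HNRNPH3 had the lowest changes of the group and SRSF7 had the highest. The sequences around the RefSeq starts of these 4 members are therefore shown. Each runs 5′ to 3′ on the gene's strand from 250 bases before to 50 bases after the RefSeq start (GRCh38.p14), and capitals mark matches to the motifs named after them. HNRNPH1 lies on the minus strand of chromosome 5, at 179614178 to 179634784 (GRCh38, GENCODE 29), and SRSF1 on that of chromosome 17, at 58003360 to 58007346. HNRNPH3 lies on the plus strand of chromosome 10, at 68331174 to 68343191, and SRSF7 on the minus strand of chromosome 2, at 38743599 to 38751494. The RefSeq starts of SRSF1 and HNRNPH3 lie inside these spans, and the HNRNPH3 window lies wholly inside its span. The window is chr5:179634735-179635034 for HNRNPH1, chr17:58007197-58007496 for SRSF1 (minus strand), chr10:68331443-68331742 for HNRNPH3 (plus strand) and chr2:38751445-38751744 for SRSF7 (minus strand).
HNRNPH1: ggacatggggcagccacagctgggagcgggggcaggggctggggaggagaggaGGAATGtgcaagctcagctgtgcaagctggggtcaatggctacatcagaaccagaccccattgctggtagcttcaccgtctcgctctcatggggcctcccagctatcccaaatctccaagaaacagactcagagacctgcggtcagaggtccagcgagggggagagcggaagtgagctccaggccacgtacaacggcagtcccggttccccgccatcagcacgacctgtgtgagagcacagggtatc
SRSF1: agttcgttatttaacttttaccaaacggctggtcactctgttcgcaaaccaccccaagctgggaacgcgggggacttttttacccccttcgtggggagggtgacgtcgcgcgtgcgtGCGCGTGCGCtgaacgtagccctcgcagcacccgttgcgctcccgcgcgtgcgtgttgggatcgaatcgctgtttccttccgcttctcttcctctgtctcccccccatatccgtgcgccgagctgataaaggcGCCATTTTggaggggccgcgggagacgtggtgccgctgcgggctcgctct
HNRNPH3: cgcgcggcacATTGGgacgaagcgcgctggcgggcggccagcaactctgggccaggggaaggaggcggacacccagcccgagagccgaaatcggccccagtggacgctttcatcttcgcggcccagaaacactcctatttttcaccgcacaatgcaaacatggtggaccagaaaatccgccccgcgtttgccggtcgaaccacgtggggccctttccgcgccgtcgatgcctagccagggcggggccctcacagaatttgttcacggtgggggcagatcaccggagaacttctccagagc
SRSF7: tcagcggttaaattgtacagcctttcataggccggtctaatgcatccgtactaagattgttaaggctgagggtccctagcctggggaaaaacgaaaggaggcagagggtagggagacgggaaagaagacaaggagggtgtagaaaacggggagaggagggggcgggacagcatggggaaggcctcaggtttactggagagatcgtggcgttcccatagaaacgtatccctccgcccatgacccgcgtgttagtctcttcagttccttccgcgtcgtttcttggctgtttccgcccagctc
The capitals are GGAATG in HNRNPH1, a match to the NRF1 motif followed by one to the YY1 motif in SRSF1, and the reverse of CCAAT in HNRNPH3, while the SRSF7 window held none of the motifs searched.

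Promoter windows were found for 63 of the 72 members, and 5 motifs were searched on both strands, each counted on its own so that matches may overlap. GGAATG, the core that TEAD proteins recognise, was present in 6 members' windows (9.52%), against 14.0% of all 35116 RefSeq windows and 11.2% of those of the tested genes. They were those of HNRNPA0, HNRNPC, HNRNPH1, HNRNPL, PRPF19 and SNRPN. The ETS core CCGGAAG was present in 21 (33.3%), against 10.3% of all windows and 17.8% of those of the tested genes. The YY1 motif AANATGGC was in 10 (15.9%, against 6.58% of all windows and 9.76% of those of tested genes). The NRF1 motif (GCGCA and GCGC separated by any base) was in 8 (12.7%, against 5.78% and 10.2%) and CCAAT in 28 (44.4%, against 34.6% and 34.9%). Of the members that were lower in the wild type TEAD4 line, 29 had a window, and 4 of these held GGAATG, as did 1 of the 9 windows of members that were higher. The shares are not in like units. Each member was counted with 1 window, whereas every RefSeq window was counted for the other genes, 13203 of them for the 11445 tested genes. The 63 members also include untested ones, such as HNRNPCL1 and SNRPN. These are counts of letters in a short window and do not show binding.

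Members were among the more abundant transcripts of these cells. Their FPKM summed to 2.004% and 2.014% of all FPKM in the control libraries, 1.83% and 1.85% in the wild type TEAD4 libraries and 2.02% in both K178R libraries. HNRNPA1, which binds splicing silencers, was highest at a mean of 474 FPKM over the 6 libraries and ranked 81 of 11445 tested genes, followed within its family by HNRNPA2B1 at 313 FPKM. SNRPB, a protein of the Sm ring, led the SNRP genes at 257 FPKM, and SRSF9 led the SRSF genes at 182 FPKM. PRPF19, the ubiquitin ligase of the complex that bears its name, led the PRPF genes at 102 FPKM, ahead of PRPF8, the scaffold of the catalytic core, at 61.9 FPKM. At the low end, PRPF40B lay between 0.852 and 1.73 FPKM, SNRPG between 3.10 and 4.48 FPKM, HNRNPA1L2 between 3.11 and 3.77 FPKM, and SRSF8 between 10.53 and 13.1 FPKM.

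**Figure D1:**
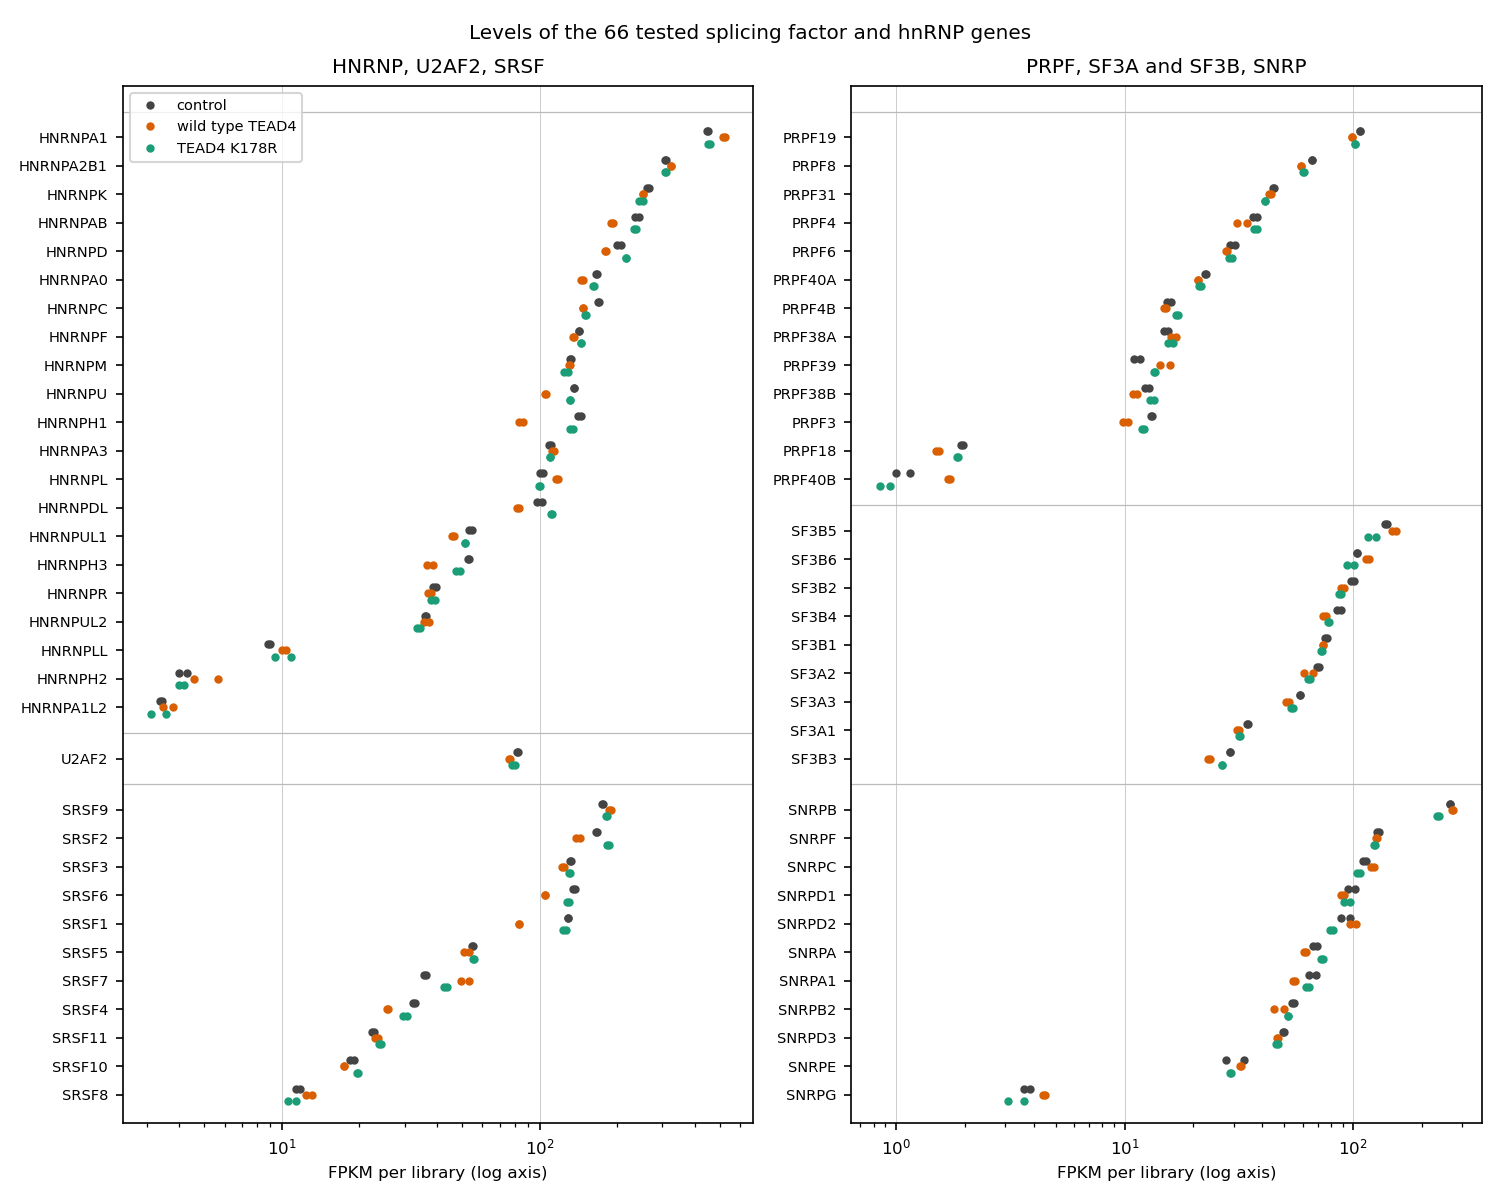
FPKM of the 66 tested members in each library on a log axis, with 2 points for each of the 3 lines in every row and the families separated by grey lines. Most members lie above 10 FPKM, the points of a line lie close together, and HNRNPH1 and SRSF1 stand out by low points in the wild type TEAD4 line.

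Wild type TEAD4 against control asks how the transcripts of these genes differ when TEAD4 is raised. In each family more genes were lower than higher, HNRNPH1 and SRSF1 most of all, whereas SRSF7, PRPF40B and PRPF39 were higher. By limma on log2(FPKM + 1), with Benjamini-Hochberg adjustment over all 11445 tested genes and a threshold of 0.05, 34 of 66 tested members were lower (51.5%) and 11 were higher (16.7%). Among all tested genes 12.2% were lower and 37.6% were higher, 49.9% in all. The median difference was -0.09 over the members and 0.09 over all tested genes on the log2 scale. Differences of single members are given without correction for this shift. Under median-of-ratios scaling, which brings the median of all genes to 0.0035, the split was 45 members lower and 5 higher.

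The split was also seen among abundant genes. Of the 60 members with a mean of at least 10 FPKM, 33 (55%) were lower and 9 (15%) higher, against 19.9% and 35.3% of the 4556 genes at that level. By at least 0.3 on the log2 scale, 8 members (HNRNPH1, SRSF1, HNRNPH3, SRSF6, HNRNPU, PRPF3, SRSF4 and HNRNPAB) were lower and 3 higher (SRSF7, PRPF40B and PRPF39), against 3.33% and 18.3% of all tested genes. Both this size and the level of 10 FPKM were chosen after values were seen. The lines did not overlap for 42 members that were lower and 19 that were higher, against 21.9% and 54.9% of all tested genes.

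HNRNPH1, which binds runs of G and regulates exon inclusion, was at 142 and 145 FPKM in the control libraries, 82.9 and 86.2 FPKM in the wild type TEAD4 libraries, and 131 and 135 FPKM in the K178R libraries. Both wild type TEAD4 libraries lay far below the other 4. HNRNPH1 fell by 0.76 on the log2 scale (SE 0.03, adjusted p = 5.15e-06), to 0.589 of its control mean, and without wild type replicate 2 the difference was -0.78. HNRNPH3, a relative of the same subfamily, was at 52.9 and 53.5 FPKM in control, 38.5 and 36.5 FPKM with wild type TEAD4 and 49.0 and 47.6 FPKM with K178R. It fell by 0.49 (SE 0.03, adjusted p = 6.4e-05). The other subfamily members did not follow closely, as HNRNPF fell by 0.07 (adjusted p = 0.0287) and HNRNPH2, at 3.98 to 5.67 FPKM, had a difference of 0.24 that was not called (adjusted p = 0.0513).

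SRSF1, an SR protein with oncogenic activity, was at 130 and 129 FPKM in control, 83.1 and 83.4 FPKM with wild type TEAD4, and 126 and 123 FPKM with K178R. As for HNRNPH1, the wild type TEAD4 libraries stood alone. SRSF1 fell by 0.63 (SE 0.02, adjusted p = 5.15e-06), to 0.645 of its control mean, and the difference was also -0.63 without wild type replicate 2. SRSF6, another enhancer-binding SR protein, fell by 0.37 (adjusted p = 4.93e-05), with 135 and 137 FPKM in control and 105 FPKM in both wild type TEAD4 libraries. SRSF4 fell by 0.33 (adjusted p = 2.2e-04), SRSF2 by 0.24 (adjusted p = 4.6e-04) and SRSF3 by 0.09 (adjusted p = 0.0125).

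SRSF7, an SR protein with a zinc knuckle that also serves mRNA export, moved the other way. It was at 35.6 and 36.2 FPKM in control, 49.5 and 53.3 FPKM with wild type TEAD4, and 43.7 and 42.8 FPKM with K178R, so the 3 lines did not overlap and K178R lay between the others. It rose by 0.50 (SE 0.04, adjusted p = 1.01e-04), to 1.43 times its control mean. Over the 11 tested SRSF genes, 5 fell, 2 rose (SRSF7 and SRSF9) and 4 were not called. SRSF9 was at 175 to 176 FPKM in control and 186 to 189 FPKM with wild type TEAD4, a rise of 0.09 that became -0.015 under median-of-ratios scaling (adjusted p = 0.605). The summed FPKM of the family was 916 ± 2.0 in control, 823 ± 8.2 with wild type TEAD4 and 934 ± 4.0 with K178R (SD, n = 2).

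**Figure D2:**
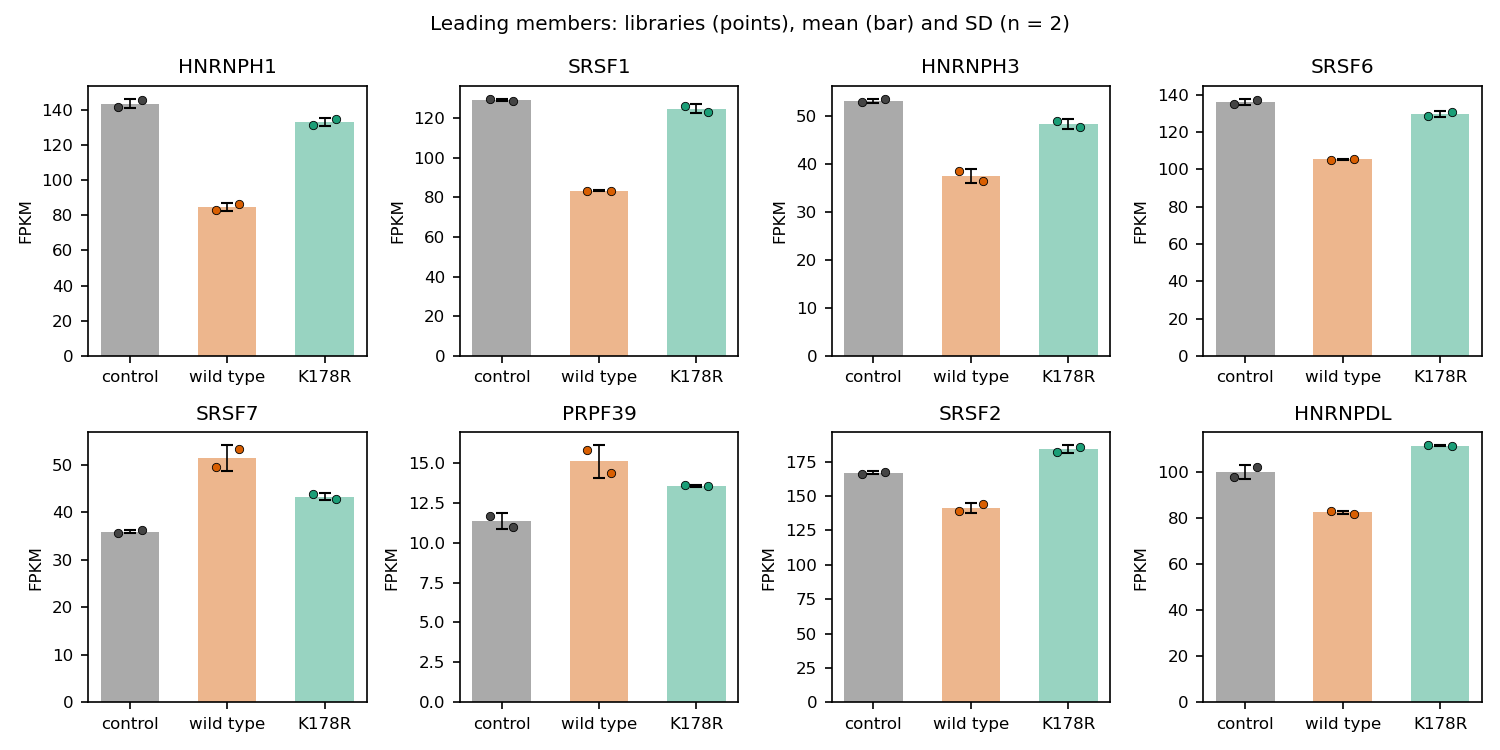
FPKM of 8 members in the 3 lines, where bars give means, error bars the SD of 2 libraries and points the libraries, on axes that start at 0. HNRNPH1, SRSF1, HNRNPH3 and SRSF6 are lowest in the wild type TEAD4 line, SRSF7 and PRPF39 are highest there, and SRSF2 and HNRNPDL are lowest with wild type TEAD4 and highest with K178R.

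Among the 21 tested hnRNP genes, 10 fell, 3 rose and 8 were not called. HNRNPU, which binds chromatin-associated RNA and the nuclear scaffold, was at 137 and 136 FPKM in control and 105 and 106 FPKM with wild type TEAD4, a fall of 0.37 (adjusted p = 3.86e-05). HNRNPAB fell by 0.32 (adjusted p = 1.34e-04) and HNRNPDL by 0.27 (adjusted p = 3.29e-04), from 97.6 and 102 FPKM to 82.9 and 81.8 FPKM. The rises were those of HNRNPA1 (0.20, adjusted p = 3.3e-04), HNRNPL, which binds CA repeats (0.20, adjusted p = 8.8e-04), and HNRNPA2B1 (0.07, adjusted p = 0.0216). The call of HNRNPA2B1 was lost when any library was left out, and its difference was -0.036 under median-of-ratios scaling (adjusted p = 0.188). HNRNPA1 was at 451 and 449 FPKM in control and 523 and 514 FPKM with wild type TEAD4, so the most abundant member rose while the family sum went from 2865 ± 22 to 2705 ± 7.5 FPKM (SD, n = 2).

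The SF3A and SF3B genes were lower in 6 of 9 cases, with SF3B3 showing the greatest fall, from 28.89 and 28.98 FPKM to 23.7 and 23.2 FPKM (-0.29, adjusted p = 3.2e-04). SF3B1, the subunit that clasps the branch site and is often mutated in cancer, was not called (-0.04, adjusted p = 0.218). SF3B6 and SF3B5, the small subunits and the most abundant of the family, rose by 0.15 (adjusted p = 0.012) and 0.12 (adjusted p = 0.0493). U2AF2 fell by 0.11 (adjusted p = 0.0113). Its partner U2AF1, which the rule leaves out, was at 19.6 and 5.71 FPKM in the control libraries and below 1 FPKM in the other 4.

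Of the 11 tested SNRP genes 5 fell and 2 rose. SNRPA1, a protein of the U2 particle, fell by 0.26 (adjusted p = 0.00144), from 68.7 and 63.9 FPKM to 55.8 and 54.5 FPKM. SNRPG rose by 0.20 (adjusted p = 0.0458) and SNRPC, a U1 protein that helps recognise the 5′ splice site, by 0.12 (adjusted p = 0.0116). Of the 13 PRPF genes 7 fell and 2 rose. PRPF3, a core protein of the tri-snRNP, fell by 0.35 (adjusted p = 4.7e-04), from 13.2 and 13.1 FPKM to 9.86 and 10.3 FPKM. The rises were PRPF39 and PRPF40B, both related to yeast factors of the U1 particle. PRPF39 went from 11.69 and 10.998 FPKM to 15.8 and 14.4 FPKM (0.38, adjusted p = 0.00103), and PRPF40B from 1.00 and 1.15 FPKM to 1.73 and 1.69 FPKM (0.38, adjusted p = 0.00264).

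Some of these calls rest on single libraries. The 11 rises became 5 without control replicate 2 and 6 without wild type replicate 2, while the 34 falls became 25 and 30. Calls of 23 falls and 5 rises (HNRNPA1, HNRNPL, PRPF39, PRPF40B and SRSF7) were kept under every alternative listed in the closing section, HNRNPH1 and SRSF1 among the falls. No rise in the SF3A and SF3B or SNRP families was kept under all of them. The 5 falls of the SNRP genes became 3 when any of the 4 libraries was left out, and those of SNRPA and SNRPA1 were kept throughout. The 7 falls of the PRPF genes became 4 without control replicate 2 and 3 without wild type replicate 1.

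**Figure D3:**
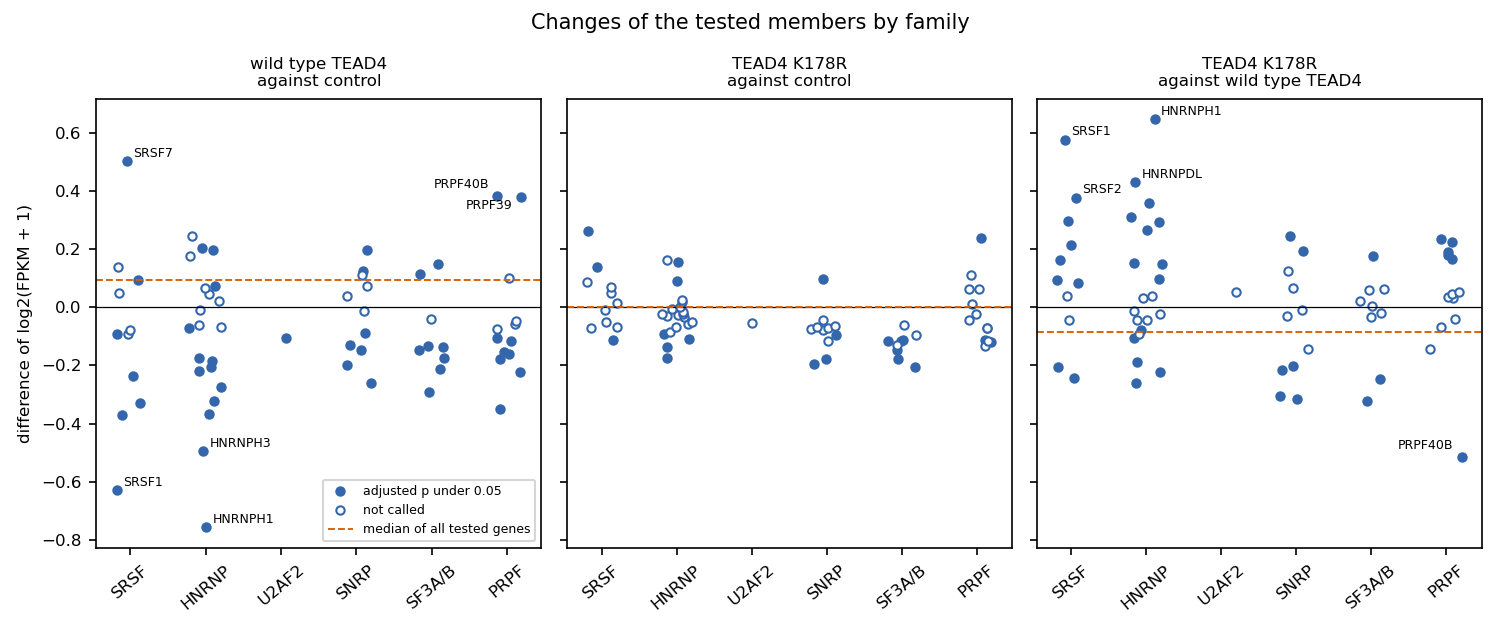
Difference of log2(FPKM + 1) for each tested member by family in the 3 comparisons, with filled points for an adjusted p under 0.05 and a dashed line at the median of all tested genes (0.09, 0.00 and -0.08). With wild type TEAD4 most points lie below the dashed line, while with K178R against control all points lie between -0.20 and 0.26.

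K178R against control asks the same of the mutant, with the same control libraries, so these differences are not independent of those above. Changes were smaller, and SRSF7 rose the most while SF3A and SF3B genes fell. Of 66 tested members 16 were lower (24.2%) and 6 were higher (9.09%), against 11.1% and 11.7% of all tested genes, 22.8% in all. None differed by 0.3 or more, as 3.38% of all tested genes did downwards and 4.89% upwards (8.27% in all). The lines did not overlap for 36 members that were lower and 15 that were higher, against 30.3% and 32.7% of all tested genes. At 10 FPKM or above, 26.7% of the members were lower and 10% higher, against 18.1% and 11.9% of all genes at that level. The median difference was -0.06 over the members and 0.00 over all tested genes.

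SRSF7 rose by 0.26 (SE 0.04, adjusted p = 0.00372). PRPF39 rose by 0.24 (adjusted p = 0.0171), to 13.6 and 13.5 FPKM. The other rises were those of HNRNPDL (0.15), SRSF2 (0.14), SNRPA (0.10) and HNRNPD (0.09). In the other direction, all 9 SF3A and SF3B genes had negative differences, and 6 of them were called, namely SF3B5 (-0.20), SF3B2 (-0.18), SF3B4 (-0.15), SF3A1 (-0.12), SF3A3 (-0.12) and SF3B3 (-0.11). The summed FPKM of the family was 697 ± 2.7 in control, 675 ± 3.7 with wild type TEAD4 and 632 ± 14 with K178R (SD, n = 2).

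SF3B2, which contacts RNA near the branch site, was at 98.2 and 100.3 FPKM in control and 86.5 and 88.6 FPKM with K178R (adjusted p = 0.00534). Of the Sm ring genes, SNRPB went from 266 and 264 FPKM to 232 and 237 FPKM (-0.18, adjusted p = 0.00174), SNRPD2 fell by 0.20 (adjusted p = 0.0299) and SNRPD3 by 0.10 (adjusted p = 0.0401). HNRNPC, which binds uridine tracts, went from 169 and 171 FPKM to 150 and 151 FPKM (-0.17, adjusted p = 0.0018). HNRNPH3, PRPF8 and HNRNPH1 fell by 0.14, 0.12 and 0.11. SRSF1 had a difference of -0.05 that was not called (adjusted p = 0.183).

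The calls in this comparison depended on each of the 4 libraries. Leaving out either control replicate turned the 6 rises into 2, and leaving out either K178R replicate turned them into 3. The 16 falls became 4 without control replicate 1 and 5 without control replicate 2. They became 3 without K178R replicate 1, and 5 without the other K178R library. The 6 falls of SF3A and SF3B genes became 1 to 3. The calls kept under every alternative were the rise of SRSF7 and the falls of HNRNPC, SF3B2 and SNRPB.

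K178R against wild type TEAD4 tests the difference between the TEAD4 lines directly. HNRNPH1, SRSF1 and most other members that were low with wild type TEAD4 were higher with K178R. The same wild type TEAD4 libraries enter both comparisons, so these differences are not independent of those with wild type TEAD4 against control. Of 66 tested members 24 were higher (36.4%) and 14 lower (21.2%), against 10.4% and 34.5% of all tested genes (44.9% in all). The lines did not overlap for 34 members that were higher and 22 that were lower, against 21.5% and 52.7%. The median difference was 0.04 over the members and -0.08 over all tested genes. Under median-of-ratios scaling 39 members were higher and 10 lower. At 10 FPKM or above, 38.3% of the members were higher and 18.3% lower, against 15% and 37.1% of all genes at that level.

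The difference was 0.65 for HNRNPH1 (SE 0.03, adjusted p = 2.49e-05) and 0.58 for SRSF1 (SE 0.02, adjusted p = 2.07e-05), which is 1.57 and 1.497 times the mean with wild type TEAD4. Without wild type replicate 2 they were 0.67 and 0.58. HNRNPDL (0.43), SRSF2 (0.38), HNRNPH3 (0.36) and HNRNPU (0.31) followed. These and the first pair were the ones higher by at least 0.3, or 9.09% of the 66, against 2.39% of all tested genes, and 4 were lower by as much (PRPF40B, SF3B5, SNRPG and SNRPD2), against 15.2%. Of the SRSF genes 7 of 11 were higher, and SRSF7 (-0.24) and SRSF8 (-0.21) were lower. Lower values were found for PRPF40B (-0.51), SF3B5 (-0.32), SNRPG (-0.32), SNRPD2 (-0.31), SF3B6 (-0.25), HNRNPL (-0.22), SNRPB (-0.21) and HNRNPA1 (-0.19). The falls included 4 of 11 SNRP genes (36.4%) and 2 of 9 SF3A and SF3B genes (22.2%), both small subunits. Among all tested genes 34.5% were lower, so the SNRP share was near that of all genes and the other was below it.

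Sorting the members by their 3 calls describes how the lines differ in them. The comparisons share libraries, so the 3 calls of a member are not independent. The patterns were counted in members only. Their shares among all tested genes were not counted, so the counts do not show whether a pattern is particular to these genes. The most common pattern, in 13 members, was lower with wild type TEAD4 than in either other line, with no call between K178R and control. It held HNRNPA0, HNRNPAB, HNRNPF, HNRNPU, HNRNPUL1, PRPF18, PRPF3, PRPF38B, PRPF4, SNRPA1, SRSF1, SRSF3 and SRSF6. A missing call does not show that K178R equals control, and the differences of these 13 from control ranged from -0.12 for PRPF3 to 0.06 for PRPF38B. HNRNPH1, HNRNPH3, SF3B3 and SRSF4 were lower in both TEAD4 lines and higher with K178R than with wild type TEAD4. Lower in both lines, with no call between them, were HNRNPC, PRPF8, SF3A1, SF3A3, SF3B2, SF3B4 and SNRPD3. The mirror pattern, higher with wild type TEAD4 than in either other line, was shown by HNRNPA1, HNRNPA2B1, HNRNPL, PRPF40B, SF3B6, SNRPC and SNRPG. Both differences of HNRNPA2B1 changed sign under median-of-ratios scaling. Another 11 members had no call in any comparison, SF3B1 and SNRPF among them.

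Members called in opposite directions against the shared control were 5, and the share of all tested genes called so was not counted. HNRNPDL was at 97.6 and 102 FPKM in control, 82.9 and 81.8 FPKM with wild type TEAD4 and 111 FPKM in both K178R libraries. SRSF2, an SR protein of nuclear speckles, was at 166 and 168 FPKM, 139 and 144 FPKM, and 182 and 186 FPKM in the same order. HNRNPD, an RNA-decay factor that binds AU-rich elements, and SNRPA, which binds a loop of U1 RNA, showed the same order of lines. SF3B5 showed the reverse order, with 141 and 138 FPKM in control, 148 and 154 FPKM with wild type TEAD4, and 115.9 and 126 FPKM with K178R. For all 5 the lines did not overlap. The rises of HNRNPD and SNRPA with K178R and of SF3B5 with wild type TEAD4 were lost when any of their 4 libraries was left out. With K178R, the rise of HNRNPDL was lost without control replicate 1. That of SRSF2 was lost without control replicate 1, control replicate 2 or K178R replicate 2. The fall of SF3B5 with K178R was lost without control replicate 1, control replicate 2 or K178R replicate 1.

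The remainder of the splicing machinery was read from 8 lists of 163 genes, of which 162 were tested. With wild type TEAD4, 57 of them fell (35.2%) and 20 rose (12.3%), against 12.2% and 37.6% of all tested genes. With K178R 25 fell (15.4%) and 5 rose (3.09%), against 11.1% and 11.7%, so the share of falls was near that of all genes. Between the TEAD4 lines 42 were higher (25.9%) and 26 lower (16.0%) with K178R, against 10.4% and 34.5%. Factors that act with the U1 and U2 particles or the branch point had 8 falls and no rise among 17 genes with wild type TEAD4. They included SF1, the first branch site binder (-0.45, from a mean of 52.6 to 38.3 FPKM), and SNRNP70, which binds U1 RNA (-0.44, from 78.5 to 57.6 FPKM). Tri-snRNP and LSM factors had 6 falls and 4 rises of 19, with SART1 (-0.29) and SNRNP40 (-0.23) against LSM4 (0.17) and LSM2 (0.13). The PRPF19 complex, step factors and helicases had 9 falls and 2 rises of 27, led by DHX35 (-0.38) and SRRM2 (-0.34), and by CDC40 (0.21) and PLRG1 (0.09, but -0.014 under median-of-ratios scaling). Leaving out wild type replicate 2 gave -0.31 for DHX35, -0.33 for SRRM2, 0.22 for CDC40 and 0.08 for PLRG1. The calls of DHX35 and PLRG1 were then lost.

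SR protein kinases and SR-related regulators had 10 falls and 3 rises of 23 with wild type TEAD4. SON, a large scaffold of nuclear speckles, fell by 0.27 and SRRT by 0.25, while TRA2A, an SR-like enhancer binder, rose by 0.31 and the SR protein kinase SRPK2 by 0.24. Leaving out wild type replicate 2 gave -0.26 for SON, -0.24 for SRRT, 0.28 for TRA2A and 0.20 for SRPK2. The call of SRPK2 was then lost. Other RNA-binding regulators had 13 falls and 8 rises of 37. RBMX fell by 0.44, from a mean of 111 to 82.1 FPKM, and MBNL1 by 0.42, while QKI rose by 0.28 and the epithelial regulator ESRP1 by 0.22. Exon junction complex and nonsense-mediated decay genes had 7 falls and no rise of 15, and SMG1, the kinase that starts decay, fell by 0.34 and MAGOH by 0.21. The minor spliceosome had 2 rises, ZMAT5 (0.44) and ZCRB1 (0.23), and 1 fall, SNRNP25 (-0.20), of 9, and its 11.1% of falls was near the 12.2% of all genes. These 3 differences were 0.38, 0.19 and -0.15 without wild type replicate 2, and the call of SNRNP25 was then lost. The SMN complex, which assembles Sm rings, had 3 falls and 1 rise of 15, with GEMIN5 (-0.40) and GEMIN4 (-0.20) against SNUPN (0.16).

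Between the TEAD4 lines, LUC7L2 (0.58), SNRNP70 (0.41), RBMX (0.40), SMG1 (0.35), GEMIN5 (0.35) and SRRM2 (0.28) were higher with K178R. SCNM1 (-0.57), ZMAT5 (-0.48), CLK2 (-0.32) and ESRP1 (-0.30) were lower. The largest of these shrank without wild type replicate 2, to 0.34 for LUC7L2 and -0.36 for SCNM1, whose call was lost. ZMAT5 was then at -0.42, CLK2 at -0.38, ESRP1 at -0.30, SNRNP70 at 0.43 and RBMX at 0.39. Of the decay and exon junction genes 5 of 15 were higher with K178R (33.3%) and none lower, against 10.4% and 34.5% of all tested genes. Against control, K178R changed fewer of these genes, with MBNL1 (-0.28), TNPO3 (-0.23), the importer of SR proteins, GEMIN2 (-0.23) and PPIL1 (-0.23) lower, and CIRBP (0.24) and DYRK1A (0.21) higher. No minor spliceosome gene was called in that comparison. Counts of single lists moved by more than 1.5 times in many alternatives: the 8 falls among U1, U2 and branch point factors became 5 without control replicate 1, control replicate 2 or wild type replicate 2, and the 7 falls of the decay list became 3 without control replicate 2 and 4 without wild type replicate 2.

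**Figure D4:**
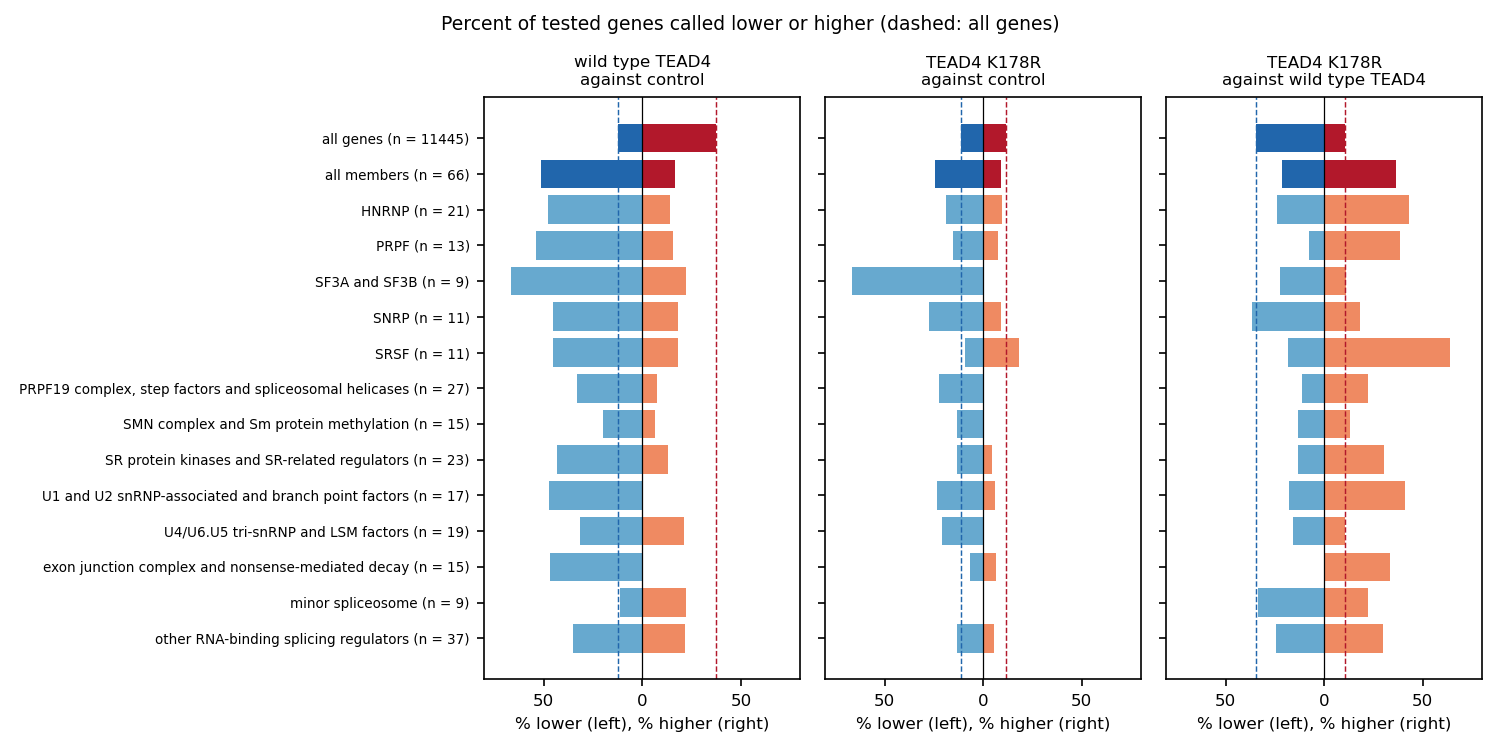
Percent of tested genes called lower (bars to the left) or higher (bars to the right) for all genes, 5 families and 8 lists in the 3 comparisons, with dashed lines at the values of all genes. With wild type TEAD4 the bars of the families reach further left than the 12.2% of all genes and fall short of the 37.6% on the right.

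Several members share sequence with other genes, and how the authors treated reads with several matches is not given in these sources. Transcripts of the 66 tested members were cut into all stretches of 50 bases and looked up in other genes (GENCODE 29, GRCh38). A median of 3.87% of a member's stretches occurred elsewhere, and 18 members exceeded 10%. The highest shares were those of HNRNPA1L2 (58.5%, mostly with HNRNPA1) and SRSF1 (57.5%, mostly with AC015813.2). HNRNPUL2 (45.2%), PRPF18 (41.0%), SRSF9 (37.4%, with GATC), SNRPA1 (29.8%), SRSF2 (28.8%, with MFSD11), PRPF40B (27.9%, with FMNL3), HNRNPL (27.8%) and HNRNPA1 (25.7%, with many pseudogenes) were also affected, so their FPKM is less certain. HNRNPH1 shared 10.1%, HNRNPH3 2.91% and SRSF7 none.

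Across the 66 members, the longest coding transcript's length and the log2 difference had a Spearman's rho of -0.20 with wild type TEAD4, 0.20 with K178R and 0.26 between the TEAD4 lines. Over 11328 tested genes the values were -0.05, 0.16 and 0.18. These are descriptions across genes, which share libraries and are not independent replicates. The 4 members with transcripts under 1000 bases had a median difference of 0.11 with wild type TEAD4, -0.15 with K178R and -0.28 between the TEAD4 lines, and all genes of that length had 0.11, -0.06 and -0.17. The part of transcript length in the falls of the small SNRP and SF3B genes with K178R was not tested.

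Markers of HCT116 and of other cell types were read beside these results. Of the epithelial markers, EPCAM was at 146 to 153 FPKM in all libraries. The sum of 5 markers was 2631 to 2677 FPKM in control, 1792 to 1846 FPKM with wild type TEAD4 and 2848 to 2881 FPKM with K178R. It was lowest with wild type TEAD4, as were KRT8 (means of 1298, 770 and 1381 FPKM in the same order) and KRT18 (691, 457 and 890 FPKM). KRT19 differed, with means of 502, 435 and 429 FPKM. The part of these markers in the SR and hnRNP falls was not tested. The 4 leukocyte markers summed to at most 0.0697 FPKM with CD3E at 0, the 3 endothelial markers to at most 0.109 FPKM, and COL1A2 and DCN, of the 4 fibroblast markers, were at 0. The fibroblast sum, nearly all of it COL1A1, was 1.501 to 1.74 FPKM in control, 3.56 to 3.75 FPKM with wild type TEAD4 and 1.68 to 1.86 FPKM with K178R, and its part in the results was not tested. In bulk RNA, fewer cells with a transcript and less of it per cell cannot be told apart.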

How the data were processed

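RNA-seq of 3 HCT116 lines (control, wild type TEAD4, TEAD4 K178R; 2 libraries each, grouped by their titles) was used as 1 table of FPKM per library. The authors deposited FPKM values, and the submitters' processing notes name Bowtie 0.12.2 and the genome build hg18. Which program and annotation gave FPKM, whether strand was used and how reads with several matches were treated is not given in the sources used here. FPKM keeps no read counts, so depth was known only as a ratio between libraries and no count model was used.

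Each file held 20030 rows, of which 4 with repeated identifiers were left out; 27 identifiers had been turned into dates. The 11445 genes that reached 0.5 FPKM in 2 or more of the 6 libraries were tested on log2(FPKM + 1), a scale that understates the changes of low genes, with limma 3.58.1 (R 4.3.3), with trend, 1 mean per line, two-sided moderated tests and Benjamini-Hochberg adjustment over all tested genes (threshold 0.05). The scripts were tested on simulated data. Named members were, per comparison, the 10 called members with the largest change in each direction, the 2 highest and the lowest tested member of each family, those called in opposite directions against control, and from each list up to 2 called genes per direction; HNRNPF, SRSF3, SF3B1 and others outside it were named after their values were seen, also the 4 promoters. The members and lists were chosen with earlier results of these data known, and the size of 0.3 and the level of 10 FPKM after values were seen. Protein sequences were not used here. Alternatives were other pseudocounts, filters, scalings and variance models, the replicate number as a block, averaged control libraries and leaving out each library.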

Additional observations from a re-analysis of the deposited data

Results flagged for a closer look

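5 members were called in opposite directions in the 2 TEAD4 lines against the shared control libraries. The direct test of K178R against wild type TEAD4 (limma, adjusted over all tested genes) called each of them. These members were chosen by their opposite calls, and the direct difference spans both. Its call therefore follows from the choice and is no separate support. The difference on the log2 scale, K178R minus wild type, was 0.43 for HNRNPDL (adjusted p = 9.76e-05), 0.38 for SRSF2 (adjusted p = 1.24e-04), 0.26 for HNRNPD (adjusted p = 3.43e-04), 0.24 for SNRPA (adjusted p = 7.57e-04) and -0.32 for SF3B5 (adjusted p = 0.00101). These 5 differences were kept under every alternative run for that comparison.

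The separate calls against control were less steady. The rise of HNRNPDL with K178R was lost without control replicate 1 (adjusted p = 0.0581) and kept otherwise. The rise of SRSF2 with K178R was lost without control replicate 1, control replicate 2 or K178R replicate 2, without the trend and with averaged controls (highest adjusted p = 0.0657). The rises of HNRNPD and SNRPA with K178R were lost whenever any library was left out (highest adjusted p = 0.205 and 0.221) and under both scalings. The rise of SF3B5 with wild type TEAD4 was likewise lost without any 1 of the 4 libraries and under both scalings (highest adjusted p = 0.887), and its fall with K178R without control replicate 1, control replicate 2 or K178R replicate 1.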

How the results depend on the processing

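Of the 66 tested members, 11 rose and 34 fell with wild type TEAD4. The rises became 6 with averaged control libraries, 5 under median-of-ratios scaling, 5 under upper-quartile scaling and 5 to 9 when 1 library was left out, and the falls 25 to 30. With K178R against control, the 6 rises became 2 with averaged controls, 3 with no filter, 3 with no trend and 2 to 3 when 1 library was left out, and the 16 falls became 4 with averaged controls, 4 with no trend and 3 to 5 when 1 library was left out. Between the TEAD4 lines the 24 higher members became 39 under median-of-ratios scaling, and 20 to 23 when 1 library was left out, and the 14 lower ones 10 to 13. Under median-of-ratios scaling, 4 called differences changed sign. With wild type TEAD4, SRSF9 went from 0.09 to -0.015, HNRNPA2B1 from 0.07 to -0.036 and PLRG1 from 0.09 to -0.014, and between the TEAD4 lines HNRNPA2B1 went from -0.08 to 0.023. The scalings lower the median of all genes with wild type TEAD4; other causes were not tested. Of the differences of called members recomputed under alternatives, 1179 kept the call, 248 lost it and 3 changed sign. Leaving out a library leaves 1 sample in that line, assumed to vary like the others.

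Deviations of same-numbered libraries correlated at 0.015, -0.031 and 0.032 over 11445 genes, so no shared deviation was seen. This cannot show whether same-numbered libraries were prepared together. With the replicate number as a block 13 members were higher and 33 lower in the wild type comparison, 5 higher and 13 lower in the K178R comparison, and 24 higher and 14 lower between the TEAD4 lines. FPKM gives no depth per value, so precision at low levels is unknown.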
